A study of Homo sapiens with 4 samples.

Results

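The 30 long terminal repeat (LTR) subfamilies described here are the high-numbered LTRs, those whose name is LTR followed directly by a number of 78 or more, out of 373 subfamilies in the deposited table. The rule reads the name and no measured value. The members run from LTR78 to LTR90B and fall under 13 numbers, of which 9 have more than 1 member. The marks are H3K9me3 and H3K9me2, the trimethylated and dimethylated forms of lysine 9 of histone H3, measured by native chromatin immunoprecipitation and sequencing (ChIP-seq) in HCT116, an established human colorectal carcinoma line. For each mark there was 1 library from cells given 5-aza-CdR (300 nM, 24 h) and 1 library from cells given PBS, and cells of all 4 groups were harvested at 5 days. 5-aza-CdR (5-aza-2'-deoxycytidine) is a nucleoside drug that, once built into DNA, captures the DNA methyltransferases, so that methylation is lost as cells divide. With 1 library per group there is no replicate, so no difference below has a test or an error between replicates. The values are the authors' z-scores, and neither the number of reads behind them nor the set they were centred on is stated in the labels or the header. Differences between libraries are therefore differences of deposited z-scores, and how much methylation a cell gained or lost cannot be read from them.

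LTRs flank the genomes of endogenous retroviruses and carry their promoters and enhancers, and most copies in the human genome are solitary LTRs left after recombination between the ends. H3K9me2 is deposited mainly by the G9a and GLP methyltransferases over broad silent regions, and H3K9me3 by SETDB1 and the SUV39H enzymes, which zinc finger proteins and other factors recruit to repeats. Young LTRs rich in CpG are held silent to a large extent by DNA methylation, while methylated CpGs in old insertions have largely decayed by deamination, so that low CpG density is a common sign of age. In repeat annotations LTR78 is placed with the ERV1 class, LTR81 with Gypsy-type elements, and LTR79, LTR80, LTR82, LTR83, LTR84 and LTR86 with the ERVL class. These are old elements that are found across many mammals.

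The CpG densities matched a label of old repeats. The members had a median deposited CpG density of 0.00529, against 0.00734 for all 373 subfamilies, and each of the 30 lay below the median of all. The low-CpG group, the 124 subfamilies (33.2% of all) with the lowest density, held 26 of the 30. LTR90B had the lowest density of the members (0.00362), the 4th lowest in the table, followed by LTR90A (0.00418) and LTR81AB (0.00418). LTR86B1 had the highest (0.00726), and LTR88a (0.00694), LTR87 (0.00652) and LTR88b (0.00639) were also outside the low-CpG group. Below the number that set the list stood LTR77, with a density of 0.00747, and LTR76, with 0.00835; just inside it LTR78 had 0.00591 and LTR78B 0.00582. PrimLTR79 (0.00952) carries a number of this range under a different prefix and is not a member.

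H3K9me2 stood high at these LTRs in both libraries. The median z-score of the members was 0.586 in 5-aza-CdR (range 0.418 to 0.838) and -0.193 in PBS (-0.307 to -0.0242). The corresponding medians of all 373 subfamilies were 0.312 in 5-aza-CdR and -0.412 in PBS. In each library 30 of 30 members lay above the median of all subfamilies, where 49.9% of all did. Most subfamilies of the other lists of old LTRs described below did too, so this is not particular to the members. In 5-aza-CdR they were 7 of 7 MamGypLTR, 21 of 21 LTR16, LTR33 and LTR40, 10 of 12 MLT2 and 26 of 28 MLT1 subfamilies. In PBS the counts were 7 of 7, 21 of 21, 12 of 12 and 27 of 28. Of the 20 highest subfamilies in each library (5.36% of the table), 7 were members in 5-aza-CdR and 10 in PBS. A rank within a library does not change if all its subfamilies were centred and scaled alike, which the labels and the header do not state. On ranks of the deposited z-scores the median member lay at percentile 90.5 in 5-aza-CdR and at the same percentile, 90.5, in PBS. On these ranks the list thus held the same place among LTRs in both libraries. The order of its members did not carry over closely (Spearman correlation 0.15 and Pearson r 0.22 across the 30 subfamilies).

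In 5-aza-CdR the highest members for H3K9me2 were LTR89 (z-score 0.838, 4th of 373), LTR88c (0.783, 5th) and LTR81AB (0.749, 7th). The lowest were LTR83 (0.418), LTR80B (0.442) and LTR78 (0.451). In PBS the highest were LTR81AB (-0.0242, 2nd of 373), LTR90B (-0.0331, 3rd) and LTR86B2 (-0.0584, 6th), and the lowest were LTR87 (-0.307), LTR80B (-0.304) and LTR86A1 (-0.297). LTR81AB was therefore near the top in both libraries and LTR80B near the bottom of the list in both, while LTR86A1 was 12th of 373 in 5-aza-CdR and 101st in PBS.

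H3K9me3 was also high, but less evenly so. The members' median z-score was 0.622 in 5-aza-CdR (range 0.452 to 0.869) and -0.487 in PBS (-0.508 to -0.389), against 0.468 and -0.504 for all subfamilies in 5-aza-CdR and in PBS. Above the median of all were 28 of 30 members in 5-aza-CdR and 29 of 30 in PBS, where 49.9% of all subfamilies lay in each library. The exceptions were LTR83 (0.452) and LTR86A2 (0.466) in 5-aza-CdR and LTR84b (-0.508) in PBS. Most subfamilies of the other old lists were above it as well. In 5-aza-CdR they were 7 of 7 MamGypLTR, 20 of 21 LTR16, LTR33 and LTR40, 10 of 12 MLT2 and 23 of 28 MLT1 subfamilies. In PBS the counts were 6 of 7, 16 of 21, 12 of 12 and 21 of 28. Of the 20 highest subfamilies, 4 were members in 5-aza-CdR and 5 in PBS, and the median member lay at percentile 82.7 in 5-aza-CdR and 79.1 in PBS. The spread of H3K9me3 was wider in 5-aza-CdR than in PBS over the whole table. The SD over the 30 members was 0.0930 in 5-aza-CdR and 0.0236 in PBS, and over all 373 subfamilies it was 0.206 in 5-aza-CdR and 0.0354 in PBS.

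For H3K9me3 in 5-aza-CdR the highest members were LTR81AB (0.869, 3rd of 373), LTR86A1 (0.776, 5th) and LTR90B (0.737, 11th), and the lowest were LTR83, LTR86A2 and LTR78 (0.509). In PBS the highest were LTR90A (-0.389, 4th of 373), LTR86B1 (-0.435, 8th) and LTR81AB (-0.448, 12th), and the lowest were LTR84b, LTR87 (-0.504) and LTR85a (-0.502). LTR81AB was the one member among the 12 highest subfamilies in each of the 4 libraries.

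**Figure D1:**
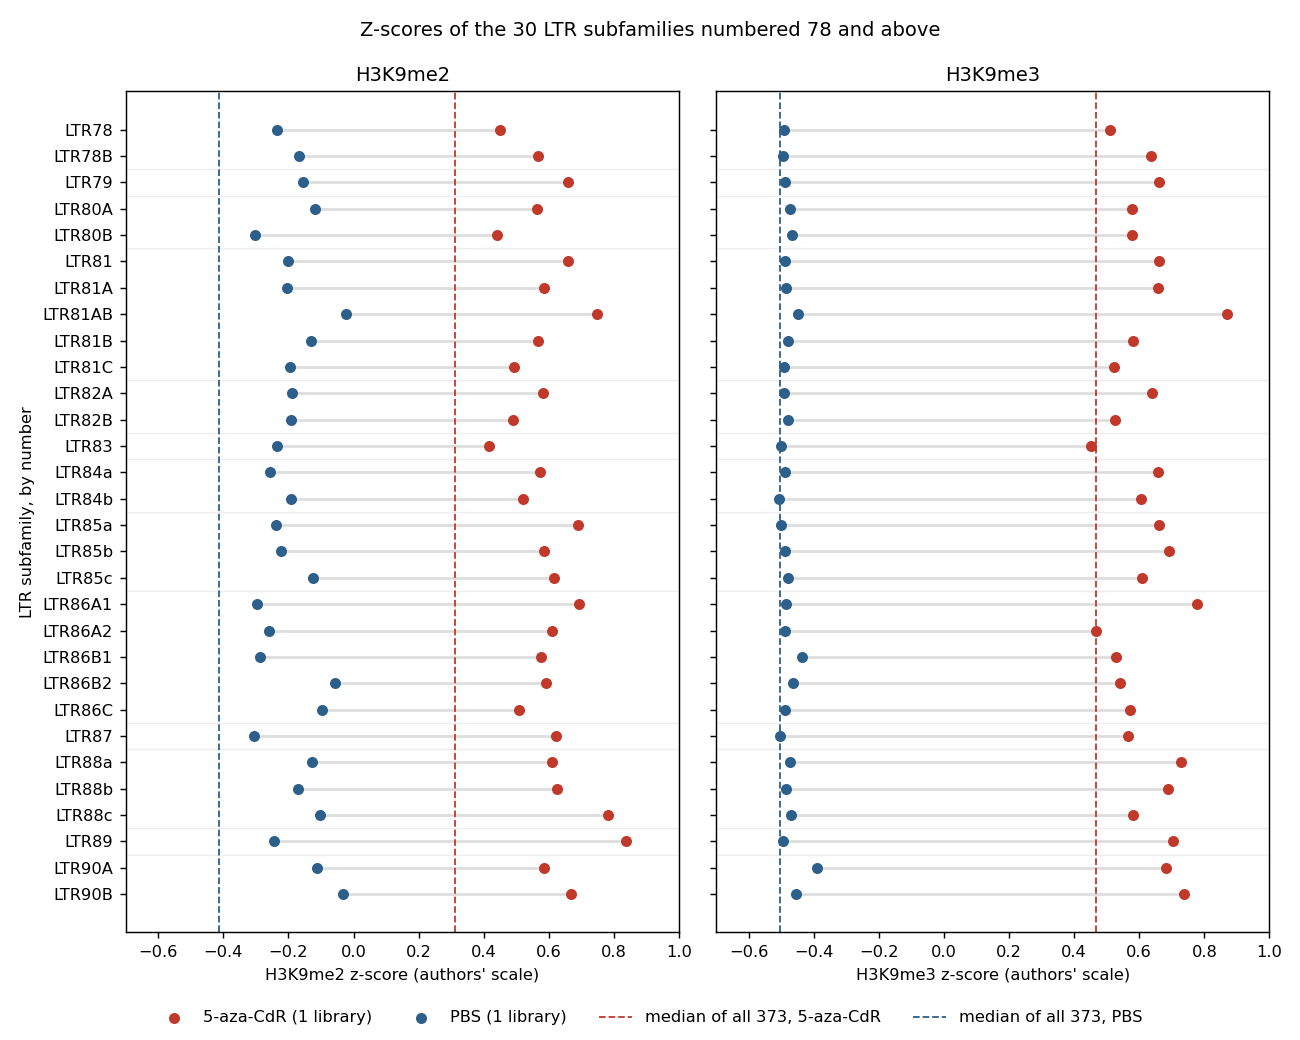
Z-scores (x axis, the authors' scale) of the 30 members, ordered by number down the page, for H3K9me2 (left) and H3K9me3 (right), with 1 red point for the 5-aza-CdR library and 1 blue point for the PBS library; dashed lines are the medians of all 373 subfamilies. Each H3K9me2 point lies to the right of its median line, and the H3K9me3 points in PBS lie in a narrow band from -0.508 to -0.389.

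Since z-scores fall with CpG density across the table, the levels were also read against that density. A straight line on log10 CpG density was fitted over all 373 subfamilies for each library, and members were set against it. For H3K9me2, 24 of 30 members lay above the line in 5-aza-CdR (50.1% of all subfamilies did) and 29 of 30 in PBS (53.4% of all). The median distance from the line was 0.129 in 5-aza-CdR and 0.0993 in PBS. For H3K9me3 the counts were 21 of 30 in 5-aza-CdR (48.5% of all) and 20 of 30 in PBS (47.2% of all), with median distances of 0.0431 and 0.00340. In both libraries H3K9me2 was therefore higher at most of these LTRs than that line would place it from CpG density alone. The H3K9me3 distances were smaller. Below the line for H3K9me2 in 5-aza-CdR were LTR80A, LTR80B, LTR82B, LTR83, LTR90A and LTR90B, each among the 27 lowest densities of the table. The other lists of old LTRs described below were not set against the line. Beside the 98 other subfamilies of the low-CpG group, whose H3K9me2 medians were 0.442 in 5-aza-CdR and -0.296 in PBS, the members were higher in both libraries. The H3K9me3 medians of those 98 were 0.549 in 5-aza-CdR and -0.491 in PBS. Subfamilies are related by descent and share a library, so these comparisons describe the table and carry no p-value. Mappability, copy number and use of an input library have no values here, and their part in the levels was not tested.

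**Figure D2:**
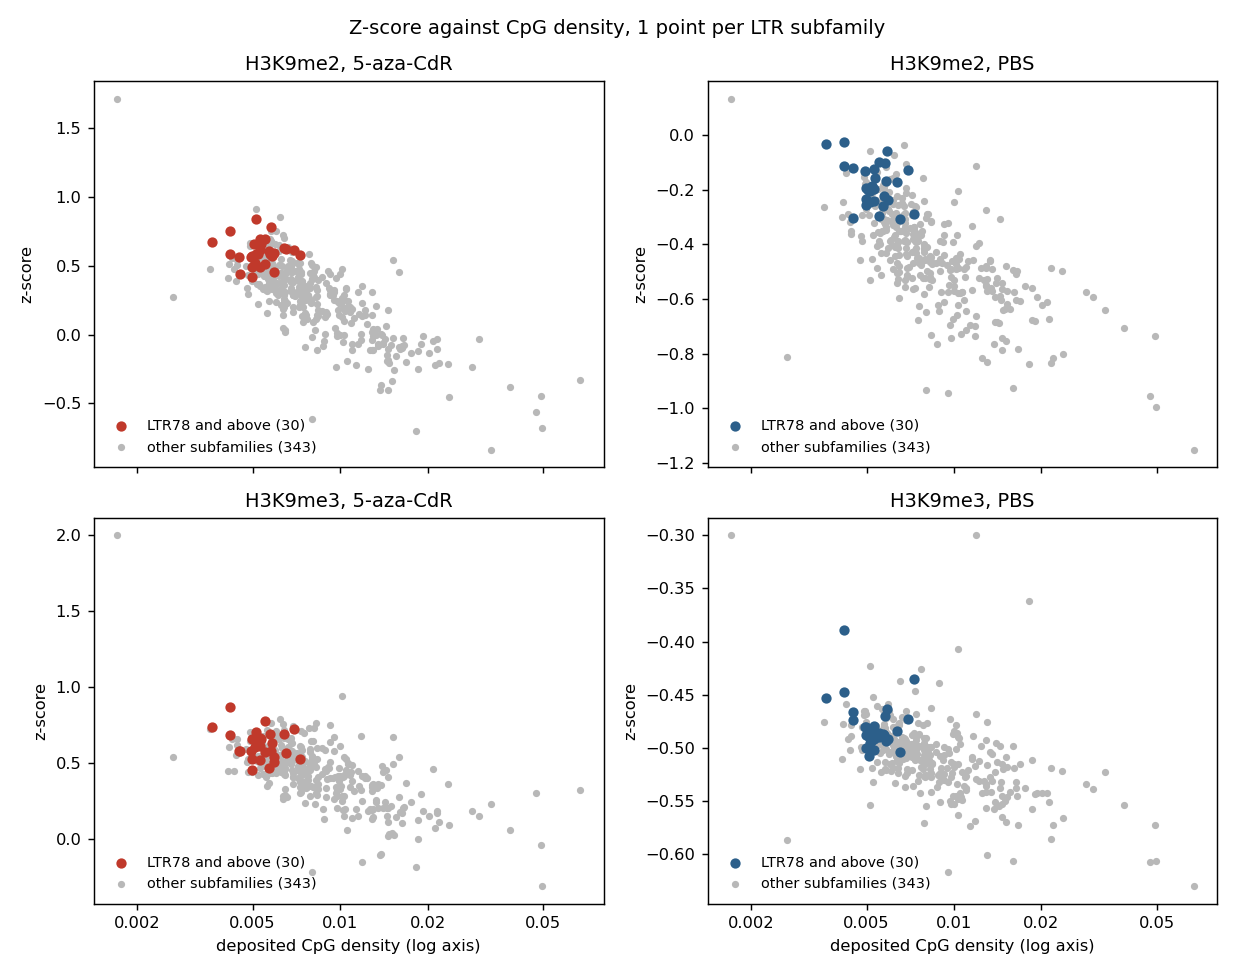
Z-score (y axis) against the deposited CpG density (x axis, log scale) for each mark (rows) in 5-aza-CdR (left column) and PBS (right column), with 1 point per subfamily; coloured points are the 30 members and grey points the 343 others. The members sit at the CpG-poor end of each panel, from 0.00362 to 0.00726, and for H3K9me2 mostly in the upper part of the cloud at their density.

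The z-score of H3K9me2 was higher in 5-aza-CdR than in PBS at 30 of 30 members, as it was at 99.7% of all subfamilies, so the direction is not a property of the list. The difference, 5-aza-CdR minus PBS, had a median of 0.757 over the members (range 0.605 to 1.08) beside 0.702 over all 373. The limit of size used in place of a test was 2 robust SDs on either side of the median of all (a robust SD is a scaled median absolute deviation), which came to 0.250 for H3K9me2. Of the members 2 of 30 lay above the limit, LTR89 and LTR86A1, where 2.95% of all subfamilies did, and 0 of 30 lay below it, where 8.04% of all did. LTR89 had z-scores of 0.838 in 5-aza-CdR and -0.243 in PBS, a difference of 1.08, the 4th largest in the table. LTR86A1 had 0.693 in 5-aza-CdR and -0.297 in PBS, a difference of 0.989, the 7th largest, and next among the members was LTR85a, with a difference of 0.929. The smallest differences were those of LTR86C (0.605), LTR86B2 (0.651) and LTR83 (0.652).

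The position of the list for H3K9me2 depended on the scale. Its median difference lay 0.441 robust SDs above that of the whole table on the deposited scale, and below it with SD 1 in each library (-0.477), on percentile ranks (-0.0112) and as residuals on CpG density (-0.0614). Members above the median of all numbered 20 of 30 as deposited (49.9% of all), 11 with SD 1 (49.9%), 14 on ranks (49.3%) and 14 as residuals (49.9%). On all 4 scales 10 of 30 members were above the median, where 34.0% of all subfamilies were, and 10 of 30 were above it on none, where 33.2% of all were. Both shares were near those of the whole table. The first 10 were LTR81, LTR84a, LTR85a, LTR85b, LTR86A1, LTR86A2, LTR86B1, LTR87, LTR88c and LTR89. The other 10 were LTR78, LTR80A, LTR81B, LTR81C, LTR82B, LTR83, LTR86B2, LTR86C, LTR90A and LTR90B. LTR89 lay between 1.39 and 3.03 robust SDs above the median on the 4 scales, and LTR86A1 between 1.9998 and 2.30. LTR89 was within the limit on ranks, and LTR86A1 just within it with SD 1. That left 1 of 30 members above it with SD 1, where 8.04% of all subfamilies were, and 1 of 30 on ranks, where 7.77% were. As residuals 2 of 30 remained above it, where 5.63% of all were, and LTR86C was the 1 member of 30 below it with SD 1, where 2.95% of all were.

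H3K9me3 z-scores in 5-aza-CdR exceeded those in PBS at 30 of 30 members, as at 100% of all subfamilies. The median difference was 1.10 over the members (range 0.952 to 1.32) beside 0.973 over all 373. Above the limit, 0.285 from the median, were 2 of 30 members, LTR81AB and LTR86A1, where 1.88% of all subfamilies were, and 0 of 30 lay below it, where 7.24% of all did. LTR81AB had z-scores of 0.869 in 5-aza-CdR and -0.448 in PBS, a difference of 1.32, the 3rd largest in the table. LTR86A1 had 0.776 in 5-aza-CdR and -0.486 in PBS, a difference of 1.26, the 6th largest, and LTR88a followed with 1.20. The smallest differences were those of LTR83 (0.952), LTR86A2 (0.953) and LTR86B1 (0.964). With the narrow spread of H3K9me3 in PBS, these differences ordered the members much as the 5-aza-CdR library did (Spearman correlation 0.96 across the 30).

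For H3K9me3 the median difference of the list stayed above that of all, but at a smaller distance on the other scales. It lay 0.906 robust SDs above the median of all as deposited, 0.329 with SD 1 in each library, 0.124 on ranks and 0.265 as residuals on CpG density. Members above the median numbered 27 of 30 as deposited (49.9% of all), 16 with SD 1 (49.9%), 17 on ranks (49.6%) and 19 as residuals (49.9%). The counts with SD 1 and on ranks were near the share of the whole table. Above it on all 4 scales were 16 of 30 members, where 29.2% of all subfamilies were, and above it on none were 3 of 30, where 28.2% of all were. Those 3 were LTR83, LTR86A2 and LTR86B1. LTR86A1 lay 1.005 to 2.03 robust SDs above the median on the 4 scales, and LTR81AB 0.165 to 2.41. On each of the 3 scales other than the deposited one, 0 of 30 members were above the limit for H3K9me3, where 5.36% of all subfamilies were with SD 1, 7.24% on ranks and 4.02% as residuals. With both marks together, 18 of 30 members had both differences above the medians of all as deposited, where 38.1% of all subfamilies did. Of the others, 9 had H3K9me3 alone above, 2 had H3K9me2 alone above (LTR86A2 and LTR86B1), and 1, LTR83, had neither. No share of all subfamilies was worked out for these smaller counts, so they only describe the members.

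**Figure D3:**
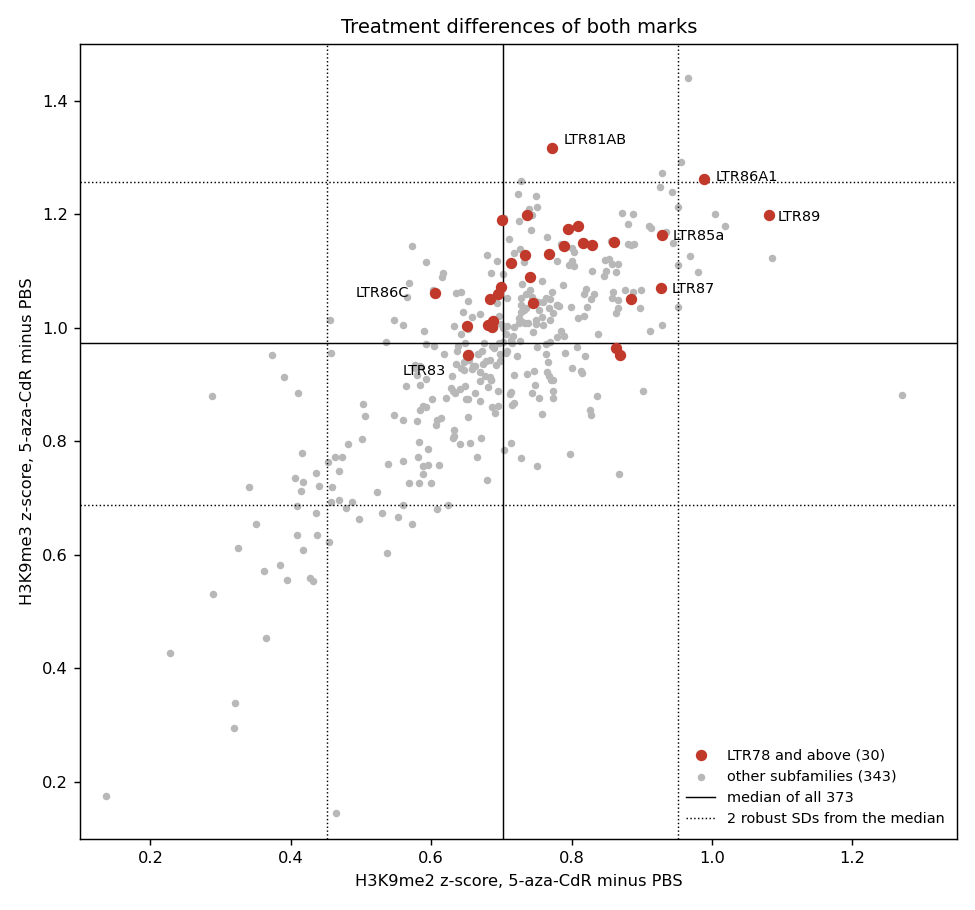
Difference in z-score, 5-aza-CdR minus PBS, for H3K9me2 (x axis) and H3K9me3 (y axis), with 1 point per subfamily; red points are the 30 members, solid lines the medians of all 373 and dotted lines 2 robust SDs from them, and 2 other subfamilies lie outside the axes. LTR86A1 lies beyond the upper limit for both marks, LTR89 for H3K9me2 and LTR81AB for H3K9me3, and no red point lies below a lower limit.

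**Figure D4:**
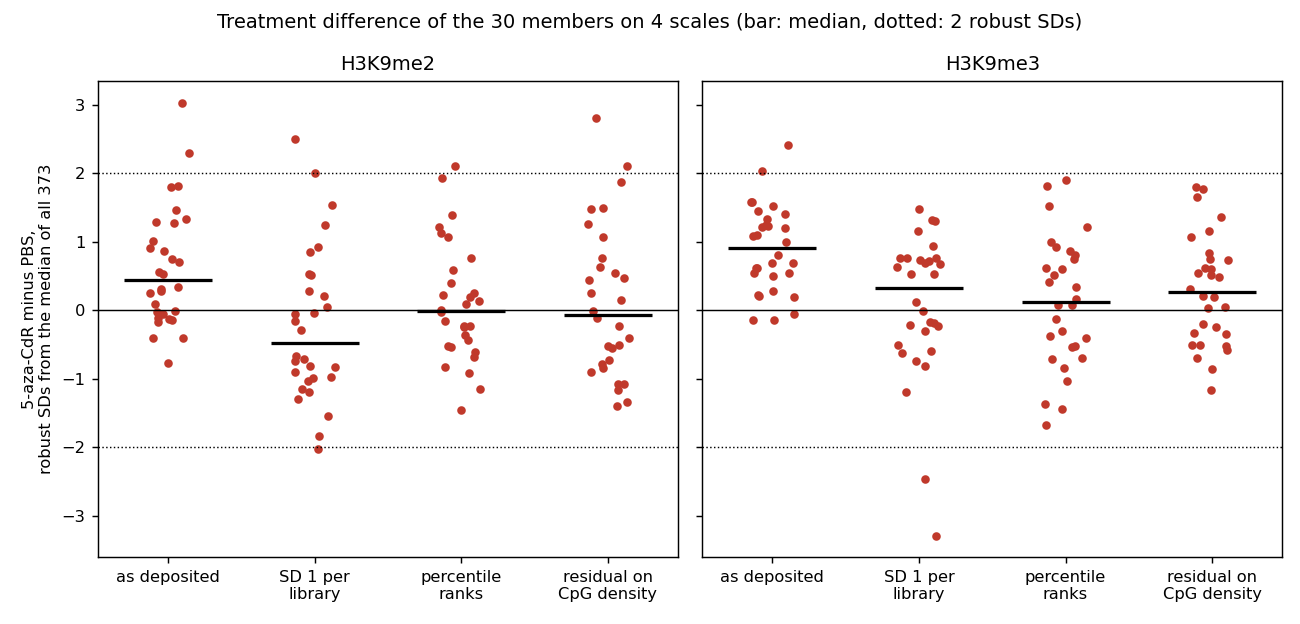
Treatment difference of the 30 members on 4 scales (x axis), in robust SDs from the median of all 373 subfamilies (y axis), for H3K9me2 (left) and H3K9me3 (right); each point is a member, bars are medians and dotted lines mark 2 robust SDs. The H3K9me2 bar is above 0 for the deposited values and below 0 for the 3 others, at -0.477, -0.011 and -0.061, whereas the H3K9me3 median stays above 0, at 0.906, 0.329, 0.124 and 0.265.

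By number, the ERV1 members LTR78 and LTR78B differed in where their treatment differences lay. For H3K9me2, LTR78 was below the median of all subfamilies on all 4 scales, and LTR78B was above it only as deposited. For H3K9me3, LTR78 was above it only as deposited, and LTR78B on all 4 scales. LTR78 had H3K9me2 z-scores of 0.451 in 5-aza-CdR and -0.236 in PBS, and LTR78B had 0.567 and -0.167, for differences of 0.687 and 0.734. For H3K9me3, LTR78 had 0.509 in 5-aza-CdR and -0.492 in PBS, and LTR78B had 0.635 and -0.494. LTR78B was the higher of the pair in both 5-aza-CdR libraries. Outside the list, LTR77 had H3K9me2 z-scores of 0.0881 in 5-aza-CdR and -0.367 in PBS, and LTR76 had -0.111 and -0.732, both below LTR78 in both libraries. LTR75 (0.229 and -0.405) and LTR75_1 (0.244 and -0.582) were also below it in both. LTR75B was below LTR78 in 5-aza-CdR (0.190) but above it in PBS (-0.204).

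Among the ERVL-class numbers from 79 to 84, LTR79 was the highest for H3K9me2 in 5-aza-CdR, with 0.660 in 5-aza-CdR and -0.156 in PBS, and had 0.661 and -0.488 for H3K9me3. LTR80A had H3K9me2 z-scores of 0.565 in 5-aza-CdR and -0.119 in PBS, and LTR80B had 0.442 and -0.304. This pair, of nearly equal CpG density (0.00451 for both), was apart in H3K9me2 level in both libraries, but had H3K9me3 differences of 1.05 and 1.04, within 0.00602 of each other. LTR82A had differences of 0.769 for H3K9me2 and 1.13 for H3K9me3, and LTR82B had 0.681 and 1.01. LTR84a had 0.829 and 1.15, and LTR84b 0.714 and 1.11. The A or a form had the larger difference for both marks in LTR82 on all 4 scales. In LTR84 it did so for H3K9me2 on all 4 and for H3K9me3 as deposited and as residuals, whereas LTR84b had the larger H3K9me3 difference with SD 1 (1.16 robust SDs above the median of all, against 0.681 for LTR84a) and on ranks (1.90 against 0.523). LTR83, the one member below the median difference of all for both marks as deposited, had H3K9me2 z-scores of 0.418 in 5-aza-CdR and -0.234 in PBS and H3K9me3 z-scores of 0.452 in 5-aza-CdR and -0.4996 in PBS. It was the lowest member in both 5-aza-CdR libraries.

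The Gypsy-type LTR81 group had 5 members. LTR81 had H3K9me2 z-scores of 0.659 in 5-aza-CdR and -0.202 in PBS, LTR81A 0.584 and -0.205, LTR81B 0.565 and -0.130, and LTR81C 0.492 and -0.197. LTR81AB was above them in both libraries, at 0.749 and -0.0242. Its H3K9me2 difference, 0.773, was nevertheless the median of the 5, which ran from 0.688 at LTR81C to 0.861 at LTR81. For H3K9me3, in contrast, the differences ran from 1.01 at LTR81C through 1.06 at LTR81B, 1.15 at LTR81A and 1.15 at LTR81 to 1.32 at LTR81AB. LTR81AB had the largest of the 5 as deposited and as residuals, but stood below LTR81 and LTR81A with SD 1 (0.530 robust SDs above the median of all for LTR81AB, 0.772 for LTR81 and 0.631 for LTR81A) and on ranks (0.165, 0.743 and 0.413 in the same order). LTR81AB also had the lowest CpG density of the 5, 0.00418, the other 4 lying between 0.00493 and 0.00529.

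The 3 LTR85 members had H3K9me2 z-scores of 0.689 (LTR85a), 0.586 (LTR85b) and 0.616 (LTR85c) in 5-aza-CdR and -0.239, -0.223 and -0.125 in PBS. LTR85a had the largest H3K9me2 difference of the 3, 0.929, and LTR85b the largest H3K9me3 difference, 1.18, with LTR85c lowest for both (0.740 and 1.09). With SD 1 and on ranks LTR85a had the largest H3K9me3 difference as well, 1.31 and 1.82 robust SDs above the median of all, against 0.937 and 0.922 for LTR85b. LTR85a and LTR85b were above the median difference of all subfamilies for both marks on all 4 scales. Of the 3 LTR88 members, LTR88c had the highest H3K9me2 z-score in 5-aza-CdR, 0.783, with -0.103 in PBS, and the lowest H3K9me3 z-score in 5-aza-CdR, 0.580, with -0.470 in PBS. LTR88a had 0.611 and -0.126 for H3K9me2 and 0.727 and -0.472 for H3K9me3 in 5-aza-CdR and in PBS, and LTR88b had 0.625 and -0.170, and 0.690 and -0.484. The order of the deposited differences in LTR88 was opposite for the marks: LTR88c, LTR88b, LTR88a for H3K9me2 (0.885, 0.796 and 0.737) and LTR88a, LTR88b, LTR88c for H3K9me3 (1.20, 1.17 and 1.05). The H3K9me2 order held on all 4 scales, but for H3K9me3 LTR88b stood above LTR88a with SD 1 (0.764 robust SDs above the median of all, against 0.538) and on ranks (0.606 against 0.344).

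LTR86, an ERVL-class number with 5 members, had the widest range of differences of any number for both marks, 0.384 for H3K9me2 and 0.310 for H3K9me3. The H3K9me3 range of LTR81 was next, at 0.304. A range tends to widen with the number of members, and LTR86 and LTR81 had the most, 5 each. The other numbers had 1 to 3, so the ranges do not compare numbers on equal terms. For H3K9me2, LTR86A1, LTR86A2 and LTR86B1 had z-scores of 0.693, 0.609 and 0.576 in 5-aza-CdR and low ones of -0.297, -0.260 and -0.287 in PBS. LTR86B2 and LTR86C had 0.593 and 0.508 in 5-aza-CdR and -0.0584 and -0.0973 in PBS. The H3K9me2 differences accordingly fell into those of LTR86A1 (0.989), LTR86A2 (0.869) and LTR86B1 (0.863) on one side and LTR86B2 (0.651) and LTR86C (0.605) on the other. For H3K9me3, LTR86A1 alone had a large difference (1.26), and the rest ran from 0.953 at LTR86A2 through 0.964 at LTR86B1 and 1.004 at LTR86B2 to 1.06 at LTR86C. LTR86A2 and LTR86B1 were above the median of all subfamilies for H3K9me2 and below it for H3K9me3 on each of the 4 scales. LTR86B1, with the highest CpG density of the members, also had the second highest H3K9me3 z-score of the members in PBS (-0.435).

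The remaining numbers were LTR87, LTR89 and the LTR90 pair. LTR87 had H3K9me2 z-scores of 0.621 in 5-aza-CdR and -0.307 in PBS, the lowest PBS value of the members, and differences of 0.928 for H3K9me2 and 1.07 for H3K9me3. LTR89 had H3K9me3 z-scores of 0.703 in 5-aza-CdR and -0.495 in PBS, a difference of 1.20, the 20th largest in the table. LTR90A and LTR90B had nearly equal H3K9me2 differences, 0.6996 and 0.701, from z-scores of 0.586 and 0.668 in 5-aza-CdR and -0.113 and -0.0331 in PBS. As deposited, both lay just under the median of all subfamilies. In robust SDs, LTR90A and LTR90B lay at -1.19 and -1.54 with SD 1, -0.427 and -0.157 on ranks, and -1.07 and -1.34 as residuals. For H3K9me3 LTR90A had 0.682 in 5-aza-CdR and -0.389 in PBS, and LTR90B 0.737 and -0.453. With SD 1 in each library the high PBS value of LTR90A put its H3K9me3 difference -3.29 robust SDs from the median of all, on the low side, against 0.696 as deposited. LTR90A and LTR86B1 were the 2 of 30 members below the limit on that scale, where 4.56% of all subfamilies were.

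Members under the same number were somewhat closer together than the 30 as a whole for some measures but not for others. The pooled SD within a number was 0.0968 for the H3K9me3 difference, beside an SD of 0.0907 over all 30 members. For the H3K9me2 difference it was 0.0994 within numbers, beside 0.109 over all 30. For the H3K9me2 level it was 0.0778 beside 0.0959 in 5-aza-CdR, and 0.0805 beside 0.0781 in PBS. For the H3K9me3 level it was 0.0962 beside 0.0930 in 5-aza-CdR, and 0.0190 beside 0.0236 in PBS. Of the 13 numbers, 4 rest on 1 member each, and no value has a replicate, so measurement error in these SDs cannot be told apart from differences between subfamilies. Across the 30 members the H3K9me3 and H3K9me2 treatment differences were related with a Spearman correlation of 0.44 and a Pearson r of 0.39. CpG density, which spans a narrow range here, had Spearman correlations of 0.25 with the H3K9me2 difference and -0.11 with the H3K9me3 difference. Members of a number share sequence and all members share the libraries, so these correlations describe the list only.

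Within each treatment, H3K9me3 was low relative to H3K9me2 at these LTRs. The median of H3K9me3 minus H3K9me2 was 0.0470 over the members in 5-aza-CdR, beside 0.144 over all subfamilies, and -0.291 in PBS, beside -0.08997. In both treatments 0 of 30 members lay above the median of all, where 49.9% of all subfamilies did. The SD over all subfamilies in PBS was 0.0354 for H3K9me3 and 0.187 for H3K9me2. As deposited, the PBS count therefore mostly restates the high H3K9me2 levels of the members. The other lists of old LTRs described next lay low as well, so this is not particular to the members. Above the median of all in 5-aza-CdR were 0 of 7 MamGypLTR, 1 of 21 LTR16, LTR33 and LTR40, 1 of 12 MLT2 and 1 of 28 MLT1 subfamilies. In PBS the counts were 0 of 7, 0 of 21, 0 of 12 and 1 of 28. The MamGypLTR median was 0.0344 in 5-aza-CdR, lower than that of the members, and -0.262 in PBS. The lowest members were LTR88c (-0.203), LTR86A2 (-0.143) and LTR89 (-0.134) in 5-aza-CdR, and LTR81AB (-0.423), LTR90B (-0.420) and LTR86B2 (-0.405) in PBS. The highest were LTR80B (0.137) in 5-aza-CdR and LTR86B1 (-0.148) in PBS. The list median stayed below that of all on the 3 other scales in both treatments, from -0.644 to -0.337 robust SDs in 5-aza-CdR and from -1.01 to -0.565 in PBS. The z-scores of the marks come from different antibodies, and their units need not be equal.

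Other old LTRs were set beside these by name: the Gypsy-type MamGypLTR repeats (7 subfamilies), the ERVL-class list of LTR16, LTR33 and LTR40 (21), the MLT2 repeats (12) and the MLT1 repeats of the MaLR class (28). For H3K9me2 the members had the highest median of the 5 lists in both libraries. The median was 0.586 in 5-aza-CdR and -0.193 in PBS for LTR78 and above, 0.549 and -0.224 for MamGypLTR, and 0.504 and -0.261 for LTR16, LTR33 and LTR40. It was 0.471 and -0.289 for MLT2 and 0.441 and -0.314 for MLT1. The lists overlapped in range, and MLT1 reached 0.855 in 5-aza-CdR, above every member. For H3K9me3 in 5-aza-CdR the members' median of 0.622 was close to that of MamGypLTR (0.636) and above those of the other 3 lists (0.540 to 0.549). In PBS the H3K9me3 medians of the 5 lists lay between -0.496 and -0.486.

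The median treatment difference for H3K9me2 was 0.757 for LTR78 and above, 0.780 for MamGypLTR, 0.754 for LTR16, LTR33 and LTR40, 0.743 for MLT2 and 0.767 for MLT1, and those for H3K9me3 were 1.10, 1.12, 1.05, 1.04 and 1.04 in the same order. The range of the H3K9me2 differences was wider in LTR78 and above (0.605 to 1.08, SD 0.109) than in MLT1 (0.673 to 0.951, SD 0.0887). Above the upper limit as deposited were 2 of 30 members for each mark, where 2.95% of all subfamilies were for H3K9me2 and 1.88% for H3K9me3. MLT1 had 0 of 28 for H3K9me2 and 1 of 28 for H3K9me3. The MamGypLTR, LTR16, LTR33 and LTR40, and MLT2 lists had 0 for either mark. At such low shares, short lists can be expected to hold few or none. The other lists were not counted with SD 1, on ranks or as residuals. On those scales 0 of 30 members were above the limit for H3K9me3 (5.36%, 7.24% and 4.02% of all). No test of these list differences is possible with 1 library per group.

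**Figure D5:**
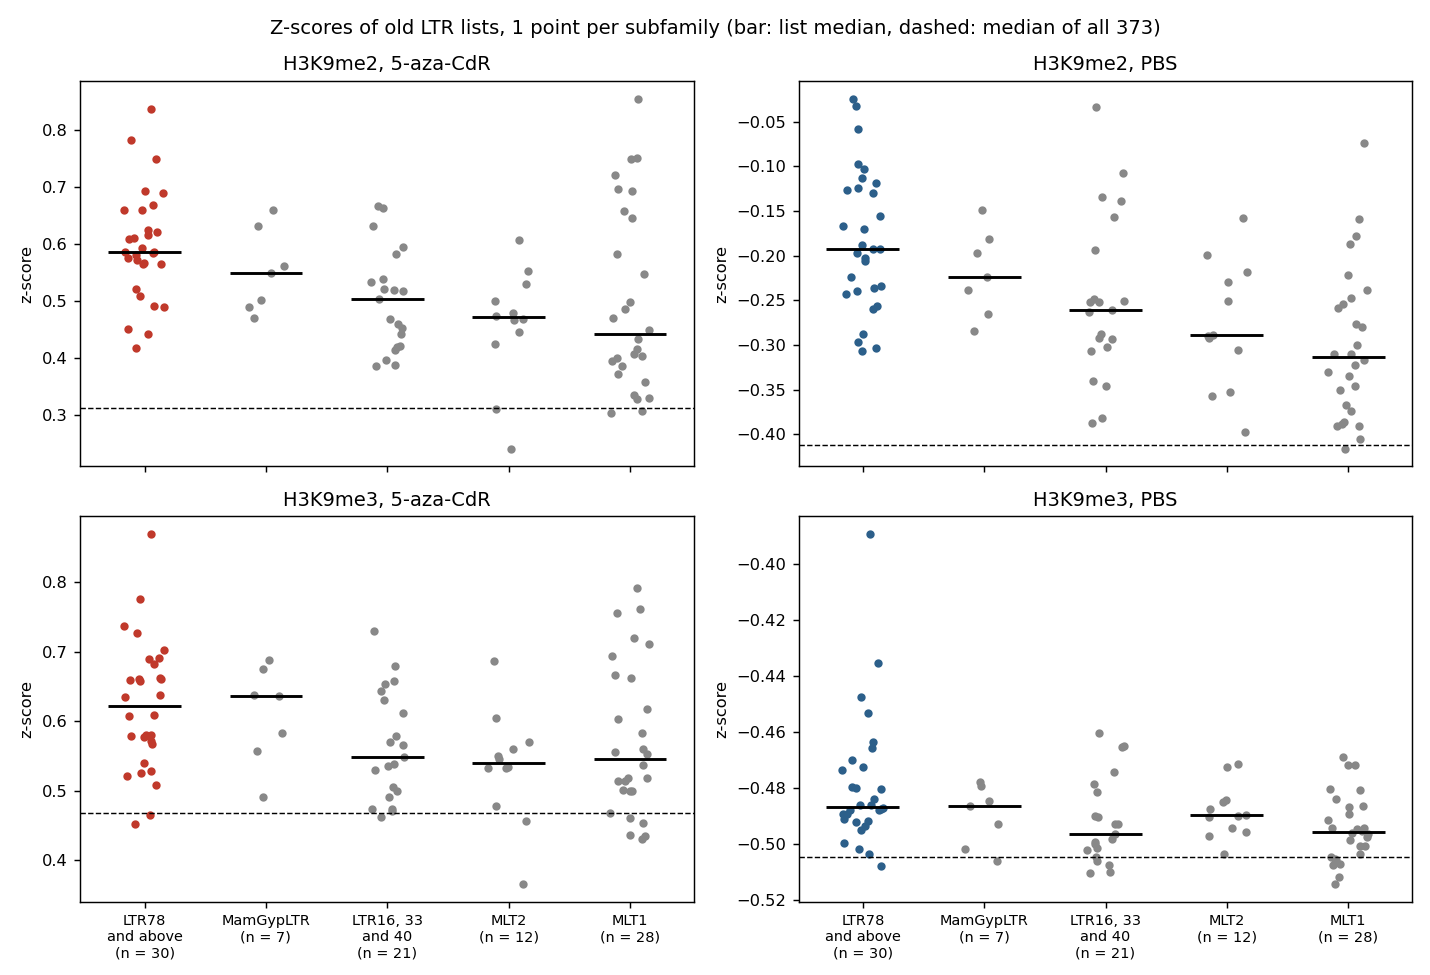
Z-scores (y axis) of the 30 members (coloured, first column of each panel) and of 4 other lists of old LTRs (grey), for each mark (rows) in 5-aza-CdR (left) and PBS (right); each point is a subfamily, bars are list medians and dashed lines the medians of all 373. The H3K9me2 bars of LTR78 and above, at 0.586 in 5-aza-CdR and -0.193 in PBS, are the highest of the 5 lists, with overlapping points.

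The non-member subfamilies most like the 2 members with the largest differences were found by Euclidean distance over the 4 z-scores. Each z-score was scaled to SD 1 over the table. Other members were left out of the search and may lie nearer, so the distances do not show how isolated a member is. Nearest to LTR89 were MLT1H2 (distance 0.496), MLT1I (0.583) and MLT1N2 (0.593), with H3K9me2 differences of 0.951, 0.944 and 0.926, all smaller than the 1.08 of LTR89. Nearest to LTR81AB were MLT1M (1.10), LTR67B (1.18) and LTR33B (1.18), at more than the distances found for LTR89. MLT1M had a H3K9me3 difference of 1.27, near the 1.32 of LTR81AB, and the others 1.15 and 1.14.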

How the data were processed

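Native ChIP-seq of H3K9me3 and H3K9me2 was read from 1 deposited table of 373 LTR subfamilies. Its deposited values are a z-score per subfamily in each of 4 libraries, the authors' standardised score, per the file headers; the set used for centring and scaling is not stated. CpG density is given as a deposited ratio, over what length is not stated. The submitters' processing notes name Bowtie2 and hg19. How multi-mapping reads and any input were handled is not stated, and depth is unknown, so no counting interval was computed.

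Members were selected by name with Python 3.11.15 and pandas 2.3.3. For each mark the PBS z-score was subtracted from the 5-aza-CdR z-score. With 1 library per group no test was made. A limit of 2 robust SDs (1.4826 times the median absolute deviation) from the median of all 373 differences stood in for one; its code was checked on simulated differences. Members were named by number, with the 3 highest and 3 lowest per measure. The members, lists and rules were chosen with earlier results of these data known. Alternatives were SD 1 in each library, ranks, residuals on log10 CpG density, other limits, comparison sets and member lists. Repeat classes are background knowledge, and LTR sequences were not used here.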

Additional observations from a re-analysis of the deposited data

How the results depend on the processing

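Of 94 alternative values for 13 results, 20 could not change by construction. Of the other 74, 42 kept their direction and stayed within 1.5 times the value as deposited, 29 moved further and 3 turned direction. In robust SDs between the members' median and that of the comparison set, the H3K9me2 treatment difference was 0.441 as deposited and turned to -0.477 with SD 1 in each library, -0.0112 on ranks and -0.0614 as residuals on CpG density; against the low-CpG group it was 0.168. The H3K9me3 difference moved to 0.329, 0.124, 0.265 and 0.446 under the same 4. H3K9me3 minus H3K9me2 moved in 5-aza-CdR to -0.480 on ranks and -0.337 as residuals, and in PBS to -0.565 on ranks and -0.711 against the low-CpG group. Against that group the levels moved to 0.711 (H3K9me2, 5-aza-CdR), 0.663 (H3K9me2, PBS), 0.499 (H3K9me3, 5-aza-CdR) and 0.182 (H3K9me3, PBS), and as residuals to 0.761, 0.397 and 0.257 for the last 3.

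In parentheses is the share of the comparison set past the same limit. The 2 members of 30 above the limit for H3K9me2 (2.95%) became 1 with SD 1 (8.04%), on ranks (7.77%), with a limit of 3 robust SDs (1.07%) and with 2 ordinary SDs (1.07%), and 4 against the low-CpG group (10.5%). The 2 for H3K9me3 (1.88%) became 1 against the low-CpG group (1.61%) and 0 with SD 1 (5.36%), on ranks (7.24%), as residuals (4.02%) and with either other limit (0.536% each). Below the limit, the 0 members became 1 for H3K9me2 (LTR86C; 2.95%) and 2 for H3K9me3 (LTR86B1 and LTR90A; 4.56%) with SD 1. The cause of these changes was not tested. The deposited H3K9me3 value is round in PBS for LTR5 and LTR11 (-0.3) and in 5-aza-CdR for LTR11 only (2). Leaving out LTR5 and LTR11, or the members under 80, left each result computed under them within 1.5 times. CpG density was not recomputed without LTR5 and LTR11, and 0 member names carry a suffix such as _Mam. For the CpG density of the members itself, the alternatives (against the low-CpG group, and without the members under 80) were chosen after seeing the data. No paired analysis was possible because each group had 1 library. With no replicate and unknown depth, a single member's difference has no error.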
